A study of Homo sapiens with 12 samples.

Results

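NEAT1, MALAT1 and 4 genes for paraspeckle proteins, SFPQ, NONO, PSPC1 and RBM14, were described across the hairpin libraries and RNA immunoprecipitations (RIP) of a study of the RNA-binding proteins TDP43 and SRSF3. The genes were taken by symbol. All 6 were among the 27745 genes of the knockdown count table. In the RIP table of 60675 entries they made up 7, because MALAT1 was listed there a second time as a short entry of 95 bases inside the gene. The genes were chosen by their part in paraspeckles, with NEAT1 and MALAT1 known from these data to have higher counts in sh-TDP43 than in sh-control, so values of that comparison are given for the 6 genes as a description, without a test. NEAT1 and MALAT1 are given without a test in the other comparisons too, since each shares libraries with that one. The 4 protein genes were taken for their part in paraspeckles and are tested there. Those comparisons share the same libraries and earlier results were known, so their p-values are not independent of the choice.

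MDA-MB231 is an established breast cancer line of the triple-negative kind, and its RNA was sequenced in 3 groups of 2 libraries each: cells with a short hairpin RNA against TDP43 (sh-TDP43), with one against SRSF3 (sh-SRSF3) or with sh-control. Hairpins were delivered by lentivirus and cells with stable expression were selected, so each group is a pool of infected cells, and the labels name 1 hairpin per target. The combined knockdown was not analysed here. For RIP, MDA-MB231 overexpressed either flag-TDP43 or flag-SRSF3, and RNA recovered with an antibody to the Flag tag was sequenced beside the input RNA of the same cells, with 1 library of each kind and no mock precipitation named.

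Paraspeckles are nuclear bodies built on NEAT1, a long noncoding RNA that is retained in the nucleus. NEAT1 has a short polyadenylated isoform and a long isoform that is not polyadenylated and is the one that scaffolds the body. SFPQ, NONO and PSPC1 form the DBHS family of RNA-binding proteins, which pair with each other, coat NEAT1 and act in transcription and splicing. SFPQ and NONO are needed for the body to form, as is RBM14, a protein with a prion-like domain that joins NEAT1 particles together. MALAT1 is the neighbouring long noncoding RNA on chromosome 11 and collects in nuclear speckles, where splicing factors including SRSF3 are stored. TDP43 is itself found in paraspeckles and binds UG-rich RNA, NEAT1 among it.

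Counted reads per library were 34992427 and 34457445 in sh-TDP43, 35912547 and 38326930 in sh-SRSF3, and 37486911 and 37987194 in sh-control. The targeted genes were lower in the libraries labelled for them. TARDBP, which encodes TDP43, was at 34.4 and 31.3 CPM in sh-TDP43, against 168 and 124.5 in sh-control (counts per 1000000 counted reads, scaled by the TMM method). SRSF3 was at 64.1 and 61.8 CPM in sh-SRSF3, against 459 and 404 in sh-control. The targets were not separate. SRSF3 was also at 187.5 and 180.4 CPM in sh-TDP43, and TARDBP at 107.9 and 101.5 CPM in sh-SRSF3. All 8 MDA-MB231 markers were detected, summing to 5345 to 5346 CPM in sh-TDP43, 5591 to 5707 in sh-SRSF3 and 6520 to 6994 in sh-control (unscaled CPM), and of 7 luminal markers ESR1, PGR and FOXA1 were at 1.75 CPM or less in every library while XBP1 was at 59.2 to 113 CPM. The 7 summed to 85.4 to 96.1 CPM in sh-TDP43, 110.7 to 131.6 in sh-SRSF3 and 117.3 to 145.9 in sh-control. The 5 haematopoietic markers summed to 78.3 to 90.1 CPM in sh-TDP43, 34.5 to 36.3 in sh-SRSF3 and 118.3 to 149.8 in sh-control, most of it CD68, with CD3E at 0.114 CPM or less. PTPRC was at 0.104 to 2.94 CPM over the 6 libraries. The part of these markers in the results was not tested. The labels do not say whether replicates were separate cultures. The p-values rest on the spread between libraries within groups, pooled over all groups and drawn toward that of other genes. That spread may be technical. In bulk RNA, fewer cells of a type and less RNA per cell cannot be told apart.

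NEAT1 (ENSG00000245532) lies on chromosome 11 (GRCh37 chr11:65190245-65213011, plus strand) and is annotated as 1 exon of 22767 bases that covers both isoforms, so its count does not separate them. It was at 3175 and 3519 CPM in sh-TDP43, at 1009 and 918 CPM in sh-SRSF3, and at 381 and 441 CPM in sh-control. The 3 groups were far apart, with both sh-TDP43 libraries highest and both sh-control libraries lowest. NEAT1 took 0.334% and 0.382% of all counted reads in sh-TDP43, 0.0935% and 0.0864% in sh-SRSF3, and 0.0378% and 0.0445% in sh-control. Ranked by CPM, which favours long genes, among the 15026 genes tested, it stood at place 13 and place 9 in the sh-TDP43 libraries, 86 and 93 in sh-SRSF3, and 389 and 303 in sh-control. Per kilobase of exon its places were 196 and 164 in sh-TDP43, 1139 and 1257 in sh-SRSF3, and 2971 and 2476 in sh-control.

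The log2 difference of NEAT1 was 3.03 (SE 0.11) between sh-TDP43 and sh-control. NEAT1 was 1.23 higher in sh-SRSF3 than in sh-control (SE 0.11), given without a test, since it uses the sh-control libraries of the comparison that led to the choice. The difference between sh-TDP43 and sh-SRSF3 was 1.80 (SE 0.11) and is given without a test, since it uses the same sh-TDP43 libraries. Over the 14 alternative settings and left-out libraries, the sh-SRSF3 change against sh-control lay between 1.07 and 1.34.

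MALAT1 (ENSG00000251562; GRCh37 chr11:65265233-65273987, plus strand) was at 894 and 923 CPM in sh-TDP43, at 755 and 740 CPM in sh-SRSF3, and at 541 and 360 CPM in sh-control. Every knockdown library was above both control libraries, and the control libraries were the ones furthest apart from each other. The log2 difference between sh-TDP43 and sh-control was 1.01 (SE 0.14), or 1.33 without control replicate 1 and 0.74 without control replicate 2. In sh-SRSF3 MALAT1 was 0.73 higher than in sh-control (SE 0.14), without a test for the same reason as NEAT1. That change was 1.05 without control replicate 1 and 0.46 without control replicate 2. Between sh-TDP43 and sh-SRSF3 the difference was 0.28 (SE 0.14), given without a test as for NEAT1, and it was 0.53 with upper-quartile scaling.

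RefSeq (GRCh38.p14) gives MALAT1 a pair of annotated starts, and the windows from 250 bases before to 50 bases after each are shown because the starts differ in composition while the counts sum over both. The first, chr11:65497488-65497787 on the plus strand, had 73.7% G or C, and the second, chr11:65498795-65499094 on the plus strand, had 46.0%. Capitals mark matches, on either strand, to the GC box GGGCGG, the CCAAT box CCAAT, the TATA box TATAAA or the UG-type repeat TGTGTG, which were the 4 motifs searched.
MALAT1 start 1: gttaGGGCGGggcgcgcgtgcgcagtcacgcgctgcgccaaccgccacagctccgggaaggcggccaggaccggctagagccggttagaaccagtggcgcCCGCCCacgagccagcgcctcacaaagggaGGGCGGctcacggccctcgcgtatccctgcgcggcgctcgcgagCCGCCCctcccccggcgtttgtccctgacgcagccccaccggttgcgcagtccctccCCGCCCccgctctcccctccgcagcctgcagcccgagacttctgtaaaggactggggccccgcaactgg
MALAT1 start 2: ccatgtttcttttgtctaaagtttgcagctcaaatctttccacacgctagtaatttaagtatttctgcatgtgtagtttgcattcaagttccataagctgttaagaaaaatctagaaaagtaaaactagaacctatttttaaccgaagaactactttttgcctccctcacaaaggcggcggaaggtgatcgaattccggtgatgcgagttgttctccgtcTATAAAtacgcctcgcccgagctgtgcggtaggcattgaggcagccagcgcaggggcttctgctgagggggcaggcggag
The first window held 5 GC boxes, 2 on the transcript strand and 3 on the other. The second held 1 TATA box, 30 bases before the start. Of 34796 such windows over all genes, 44.9% held a GC box and 11.6% a TATA box on either strand. A match is a description of these letters and shows no binding.

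**Figure D1:**
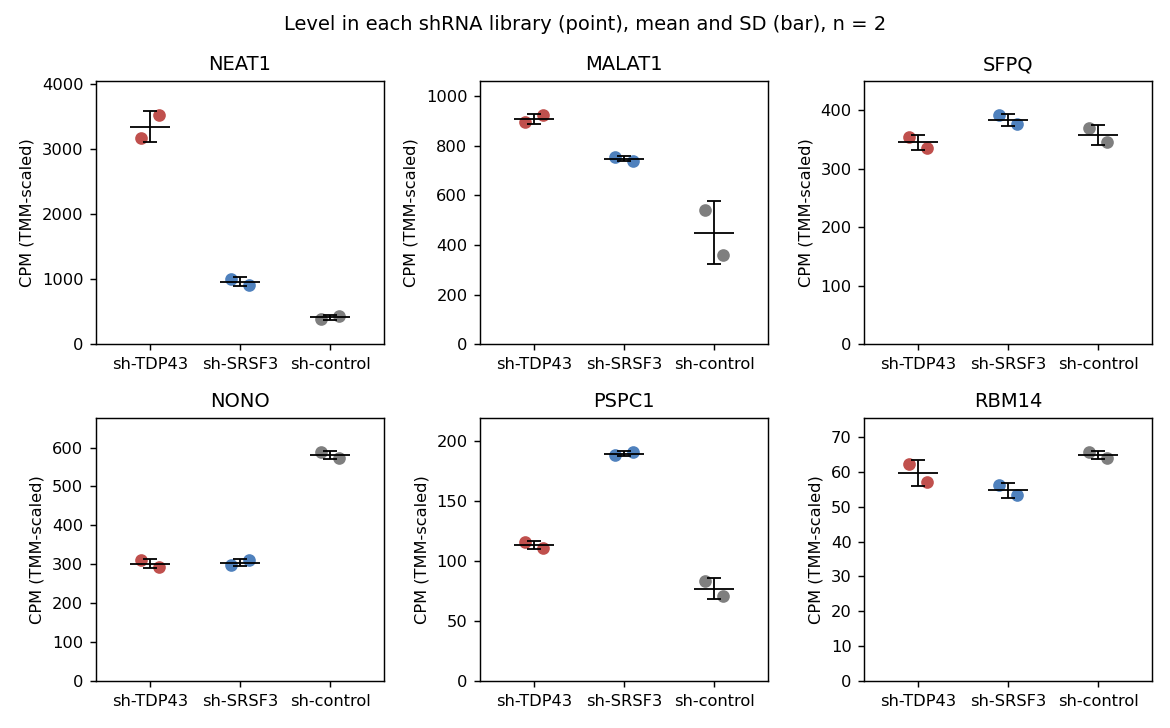
Level of each gene in each hairpin library, in TMM-scaled CPM on a linear axis that starts at 0, with a point per library and a bar for the mean and SD of 2 libraries. NEAT1 is highest in sh-TDP43 at 3347 CPM on average, NONO is highest in sh-control at 581 CPM, and PSPC1 is highest in sh-SRSF3 at 189 CPM.

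Among the DBHS genes, NONO was lower and PSPC1 higher in both knockdowns, while SFPQ stayed near its control level. SFPQ (ENSG00000116560; GRCh37 chr1:35641979-35658749, minus strand) encodes the splicing factor that, with NONO, binds along NEAT1. It was at 354 and 336 CPM in sh-TDP43, at 391 and 375 CPM in sh-SRSF3, and at 370 and 346 CPM in sh-control. The sh-TDP43 libraries overlapped those of sh-control, and sh-SRSF3 lay slightly above both groups. Its log2 difference was -0.05 (SE 0.09) in sh-TDP43 against sh-control, 0.10 in sh-SRSF3 against sh-control (SE 0.09, edgeR adjusted p = 0.347) and -0.15 in sh-TDP43 against sh-SRSF3 (SE 0.09, edgeR adjusted p = 0.151), and neither test passed.

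NONO (ENSG00000147140; GRCh37 chrX:70503042-70521018, plus strand), which encodes the usual partner of SFPQ, was at 310 and 293 CPM in sh-TDP43, at 298 and 310 CPM in sh-SRSF3, and at 588 and 573 CPM in sh-control. Both knockdown groups lay far below sh-control and overlapped each other. NONO fell by 0.93 on the log2 scale in sh-SRSF3 against sh-control (SE 0.09, edgeR adjusted p = 5.5e-07), and its difference between sh-TDP43 and sh-control was -0.94 (SE 0.09). Between sh-TDP43 and sh-SRSF3 it was -0.01 (SE 0.09, edgeR adjusted p = 0.927), which became 0.24 with upper-quartile scaling (edgeR adjusted p = 0.0268), a scaling that moved the median of all genes in this comparison by 0.25.

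PSPC1 (ENSG00000121390; GRCh37 chr13:20248892-20357159, minus strand), which encodes the third DBHS protein, was at 115.5 and 110.7 CPM in sh-TDP43, at 187.9 and 190.6 CPM in sh-SRSF3, and at 82.9 and 70.6 CPM in sh-control. The 3 groups did not overlap, and here sh-SRSF3 was the highest. PSPC1 rose by 1.30 on the log2 scale in sh-SRSF3 against sh-control (SE 0.10, edgeR adjusted p = 5.58e-08), and was 0.56 higher in sh-TDP43 than in sh-control (SE 0.10). Its difference between sh-TDP43 and sh-SRSF3 was -0.74 (SE 0.10, edgeR adjusted p = 1.21e-05).

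The start windows of the DBHS genes that changed in sh-SRSF3 in opposite directions are given from RefSeq (GRCh38.p14), NONO at chrX:71283385-71283684 on the plus strand and PSPC1 at chr13:19782896-19783195 on the minus strand, read 5′ to 3′ along the transcript with capitals as above.
NONO: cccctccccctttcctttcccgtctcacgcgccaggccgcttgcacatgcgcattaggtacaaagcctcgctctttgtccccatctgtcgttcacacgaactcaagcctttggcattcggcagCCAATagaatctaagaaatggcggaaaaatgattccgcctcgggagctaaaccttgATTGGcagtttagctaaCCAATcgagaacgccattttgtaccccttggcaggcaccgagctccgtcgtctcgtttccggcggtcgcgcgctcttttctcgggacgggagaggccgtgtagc
PSPC1: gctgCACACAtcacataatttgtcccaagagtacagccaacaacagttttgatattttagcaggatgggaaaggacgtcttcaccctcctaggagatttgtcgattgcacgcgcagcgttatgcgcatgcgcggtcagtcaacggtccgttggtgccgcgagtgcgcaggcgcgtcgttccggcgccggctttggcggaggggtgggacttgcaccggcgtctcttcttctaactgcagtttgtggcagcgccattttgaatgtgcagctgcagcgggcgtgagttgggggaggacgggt
The NONO window held 3 CCAAT boxes, at 127 and 54 bases before the start on the transcript strand and at 71 bases before it on the other strand. The PSPC1 window held none of the first 3 motifs and 1 match to the repeat, on the strand opposite to the transcript. On either strand, a CCAAT box was in 34.6% of all 34796 windows and the repeat in 17.1%. RefSeq windows were found for 4 of the 6 genes, and of these 4 RBM14, whose call in sh-SRSF3 did not hold under every alternative, is not shown.

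RBM14 (ENSG00000239306; GRCh37 chr11:66384053-66394818, plus strand) was at 62.2 and 57.0 CPM in sh-TDP43, at 56.3 and 53.2 CPM in sh-SRSF3, and at 65.7 and 64.1 CPM in sh-control. The knockdown libraries lay below the control libraries by small amounts and the groups did not overlap. Its log2 difference was -0.12 in sh-TDP43 against sh-control (SE 0.09) and 0.12 in sh-TDP43 against sh-SRSF3 (SE 0.10, edgeR adjusted p = 0.274). The change in sh-SRSF3 against sh-control was -0.24 (SE 0.10, edgeR adjusted p = 0.0352), and that call ended in 7 of 14 alternatives, among them DESeq2 (adjusted p = 0.0648) and leaving out either sh-SRSF3 library or either control library. RBM14 shares exons with the read-through gene RBM14-RBM4, and reads on both are not counted.

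Among the 4 protein genes, NONO, PSPC1 and RBM14 passed the adjusted p threshold of 0.05 in sh-SRSF3 against sh-control, where 66.9% of all 15026 genes tested did. In sh-TDP43 against sh-SRSF3 only PSPC1 of these 4 did, where 65.5% of all genes did. In sh-TDP43 against sh-control the background was 44.8%, and 4 of the 6 were past the threshold, NEAT1, MALAT1, NONO and PSPC1, a count from which nothing is read because that comparison led to the choice of genes. The knockdown comparisons share the control libraries. The scaling hardly depended on the nuclear RNAs, and computing it without NEAT1 and MALAT1 moved the median of all genes by at most 0.000232 on the log2 scale.

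**Figure D2:**
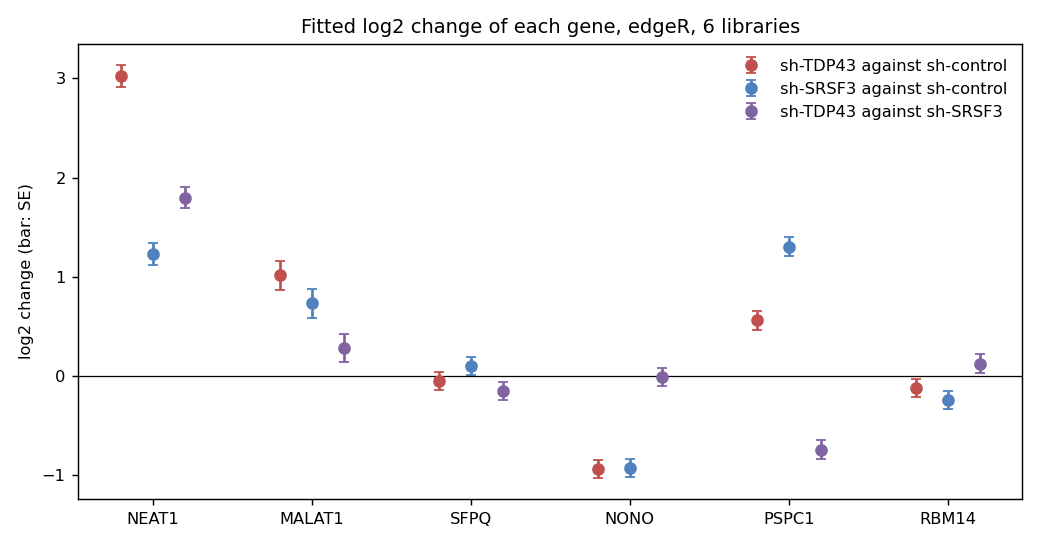
Fitted log2 change of each gene in 3 comparisons, with SE bars, from the edgeR fit of 6 libraries (vertical axis in log2 units, a line at 0). NEAT1 spans 1.23 to 3.03, NONO sits at -0.94 and -0.93 in the knockdowns against sh-control, and PSPC1 is at 1.30 in sh-SRSF3 and 0.56 in sh-TDP43.

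Levels were compared between genes per length, in RPKM (TMM-scaled CPM per kilobase of exon). In sh-TDP43 the order of the mean levels was NEAT1 at 147 RPKM, MALAT1 at 104, NONO at 57.0, SFPQ at 46.4, PSPC1 at 23.5 and RBM14 at 15.1, with no overlap between neighbours. In sh-SRSF3 MALAT1 led at 85.4 RPKM, followed by NONO at 57.4, SFPQ at 51.6, NEAT1 at 42.3, PSPC1 at 39.3 and RBM14 at 13.9. NEAT1 at 44.3 and 40.3 and PSPC1 at 39.0 and 39.6 RPKM were nearly level there. In sh-control NONO led at 110 RPKM, followed by MALAT1 at 51.4, SFPQ at 48.2, NEAT1 at 18.1, RBM14 at 16.5 and PSPC1 at 15.9. Levels of MALAT1 and SFPQ overlapped in sh-control, as did those of RBM14 and PSPC1, and NEAT1 and RBM14 were nearly level. NEAT1 thus stood first of the 6 per annotated length in sh-TDP43 and below MALAT1, NONO and SFPQ in both other groups. Its length was taken as the full 22767 bases, though the count mixes both isoforms. Reads from the short isoform would make its level per length too low, so its place among the 6 is uncertain.

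The makeup of the DBHS transcripts differed between the groups. SFPQ, NONO and PSPC1 together had 127 RPKM in sh-TDP43, 148 in sh-SRSF3 and 174 in sh-control. NONO was 45.0% and 44.8% of that sum in sh-TDP43, 38.1% and 39.4% in sh-SRSF3, and 62.4% and 63.9% in sh-control. PSPC1 was 18.4% and 18.6% in sh-TDP43, 26.4% and 26.6% in sh-SRSF3, and 9.66% and 8.64% in sh-control. The 3 groups were separate for both shares, with NONO lowest and PSPC1 highest in sh-SRSF3. NEAT1 per unit of DBHS RPKM was 1.07 and 1.25 in sh-TDP43, 0.300 and 0.271 in sh-SRSF3, and 0.0939 and 0.114 in sh-control. The size of this and the next ratio rests on the full annotated length of NEAT1. The ratio of NEAT1 to MALAT1 was 1.37 and 1.47 in sh-TDP43, 0.514 and 0.477 in sh-SRSF3, and 0.271 and 0.471 in sh-control, where control replicate 2 came close to the sh-SRSF3 libraries.

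**Figure D3:**
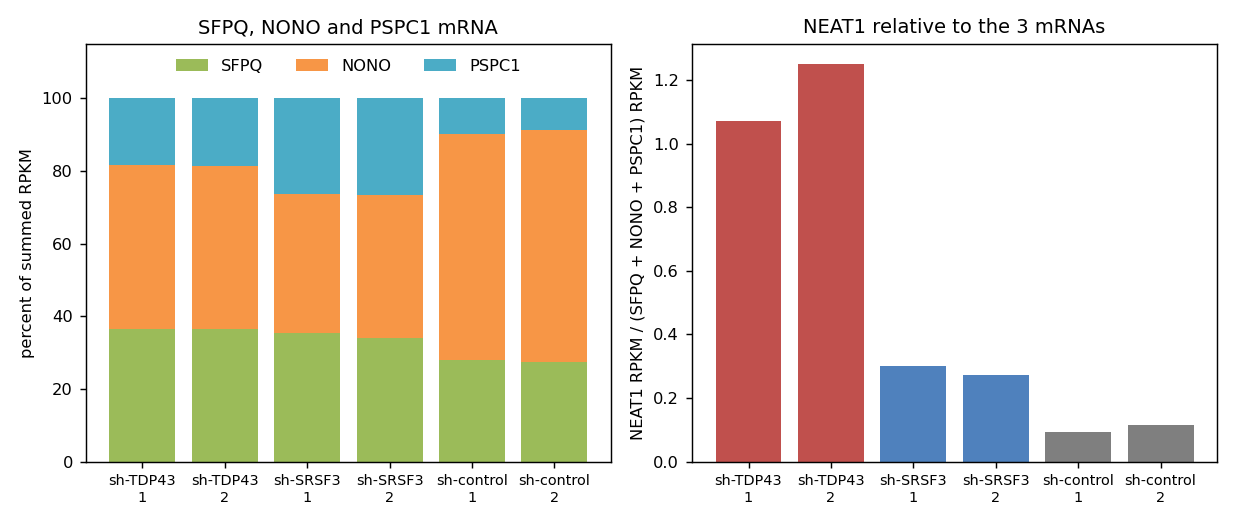
Left, share of SFPQ, NONO and PSPC1 in their summed RPKM in each library (percent), and right, RPKM of NEAT1 divided by that sum (bars from 0, no unit), for the 2 libraries of each group. NONO holds at most 45.0% of the sum in every knockdown library and 62.4% and 63.9% in sh-control. The NEAT1 ratio, taken over its full annotated length, is above 1 only in the sh-TDP43 libraries.

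Other genes tied to these bodies moved in both directions. Of 33 tested genes for other paraspeckle proteins, 5 rose and 14 fell in sh-TDP43 against sh-control, with a median log2 change of -0.14 beside -0.0035 over all genes. ZC3H6, a zinc finger gene, rose by 1.74 (SE 0.27) and FAM98A rose by 0.91 (SE 0.09), while NUDT21, a cleavage factor subunit gene, fell by 0.76 (SE 0.11) and RBMX, an hnRNP G gene, fell by 0.72 (SE 0.10). The list contains TARDBP. The number that fell was 9 without sh-TDP43 replicate 2 or without control replicate 1, and also with upper-quartile scaling or library totals. In sh-SRSF3 against sh-control 14 of the 33 rose and 12 fell (median 0.12, beside -0.03 over all genes), with 9 rises under upper-quartile scaling. RBM7 rose by 1.16 (SE 0.13) and the splicing factor gene SRSF10 rose by 0.93 (SE 0.09), while HNRNPK, whose protein favours the long NEAT1 isoform, fell by 0.99 (SE 0.09). These changes passed the edgeR test, as did all those below said to have risen or fallen. Over all genes, 20.7% rose and 24.1% fell in sh-TDP43, and 32.5% rose and 34.4% fell in sh-SRSF3. The lists were chosen with earlier results of these data known, so these counts and those below are a description and not independent support.

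The choice of NEAT1 isoform depends on cleavage and polyadenylation of the short one, in which NUDT21 and CPSF6 act, and its turnover on the exosome. Of 20 genes for such factors, 3 rose and 5 fell in sh-TDP43 (median -0.02). NUDT21 was at 80.9 ± 13 CPM in sh-TDP43 and 137 ± 2.8 in sh-control (SD, n = 2), and EXOSC10, an exosome nuclease gene, fell by 0.72 (SE 0.09). Those that rose were small and each call ended when a single library was left out. In sh-SRSF3 9 rose and 8 fell (median 0.07), and 5 fell without control replicate 1. CPSF2, a subunit gene of the cleavage complex, fell by 2.04 (SE 0.09), to 35.2 ± 0.55 CPM in sh-SRSF3, against 144 ± 2.3 in sh-control, and CSTF3, a cleavage stimulation factor gene, rose by 1.17 (SE 0.09). NUDT21 also fell in sh-SRSF3, by 0.98 (SE 0.11).

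Nuclear speckle genes are those of the bodies in which MALAT1 gathers. Of 25 tested, 0 rose and 12 fell in sh-TDP43 (median -0.24), the 12 becoming 7 without sh-TDP43 replicate 2. At an unadjusted p under 0.05 in edgeR 0 rose as well, and DESeq2 called 0 higher. In sh-SRSF3 13 rose and 10 fell (median 0.40). The list contains SRSF3, itself a knockdown target. It is among those that fell in both knockdowns and among those higher in sh-TDP43 than in sh-SRSF3. SREK1, a serine and arginine rich splicing factor gene, was at 71.9 ± 3.0 CPM in sh-TDP43, 221 ± 7.5 in sh-SRSF3 and 134 ± 4.5 in sh-control (SD, n = 2). RBM25, a splicing regulator gene, rose by 1.18 in sh-SRSF3 (SE 0.09) and SRSF2, a speckle marker gene, fell to 32.1 ± 4.7 CPM in sh-SRSF3, against 129 ± 13 in sh-control (SD, n = 2). The direct difference between sh-TDP43 and sh-SRSF3 had 6 of the 25 higher and 14 lower in sh-TDP43, where 33.5% and 32.0% of all genes were, with SREK1 at -1.62 (SE 0.09). With upper-quartile scaling 9 were higher and 9 lower, and with library totals 9 and 10.

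Of 13 other long noncoding RNAs tested, 5 rose and 1 fell in sh-TDP43 (median 0.03), which became 1 and 0 without sh-TDP43 replicate 2. In sh-SRSF3 5 rose and 6 fell (median -0.24), and 3 fell without sh-SRSF3 replicate 1. MIR22HG, the host gene of a microRNA, rose by 0.87 in sh-TDP43 (SE 0.11) and by 1.10 in sh-SRSF3 (SE 0.11). SNHG15, a snoRNA host gene, rose by 1.26 in sh-SRSF3 (SE 0.10). LINC00261 fell by 2.61 in sh-SRSF3 (SE 0.16) and by 0.60 in sh-TDP43 (SE 0.15). Of 17 neighbours of NEAT1 and MALAT1 on 11q13, 3 rose and 1 fell in sh-TDP43 (median 0.18). The numbers ran from 0 to 7 for rises and 0 to 1 for falls over the alternatives. In sh-SRSF3 6 rose and 6 fell (median -0.15), with the chromatin gene DPF2 up by 0.89 (SE 0.09) and CAPN1, a calpain protease gene, down to 77.5 ± 3.8 CPM in sh-SRSF3, against 185 ± 4.5 in sh-control (SD, n = 2).

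Some mRNAs with inverted Alu repeats, or others held by paraspeckle proteins, are retained in the nucleus by the bodies. Of 11 tested genes on a list drawn up around such mRNAs, 0 rose and 5 fell in sh-TDP43 (median -0.26), and 3 rose and 5 fell in sh-SRSF3 (median 0.10). The list also took in genes for which no such retention is claimed here, among them CXCL8, PRMT1 and EIF2AK2. In sh-TDP43 the 5 became 3 without sh-TDP43 replicate 2, and in sh-SRSF3 the 5 became 3 without sh-SRSF3 replicate 2. At an unadjusted p under 0.05 in edgeR 1 of the 11 rose in sh-TDP43, and DESeq2 called 0 higher. CCNYL1, a cyclin-like gene, was at 20.9 ± 0.58 CPM in sh-TDP43, 55.0 ± 0.56 in sh-SRSF3 and 35.7 ± 1.8 in sh-control (SD, n = 2), so it fell in one knockdown and rose in the other. The inflammatory chemokine gene CXCL8 was at 3.28 ± 0.69 CPM in sh-SRSF3 and 17.8 ± 11 in sh-control (SD, n = 2), a fall of 2.44 (SE 0.35) that ranged from -2.95 to -1.64 over the alternatives. Counts per gene do not show where in the cell an RNA lies.

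**Figure D4:**
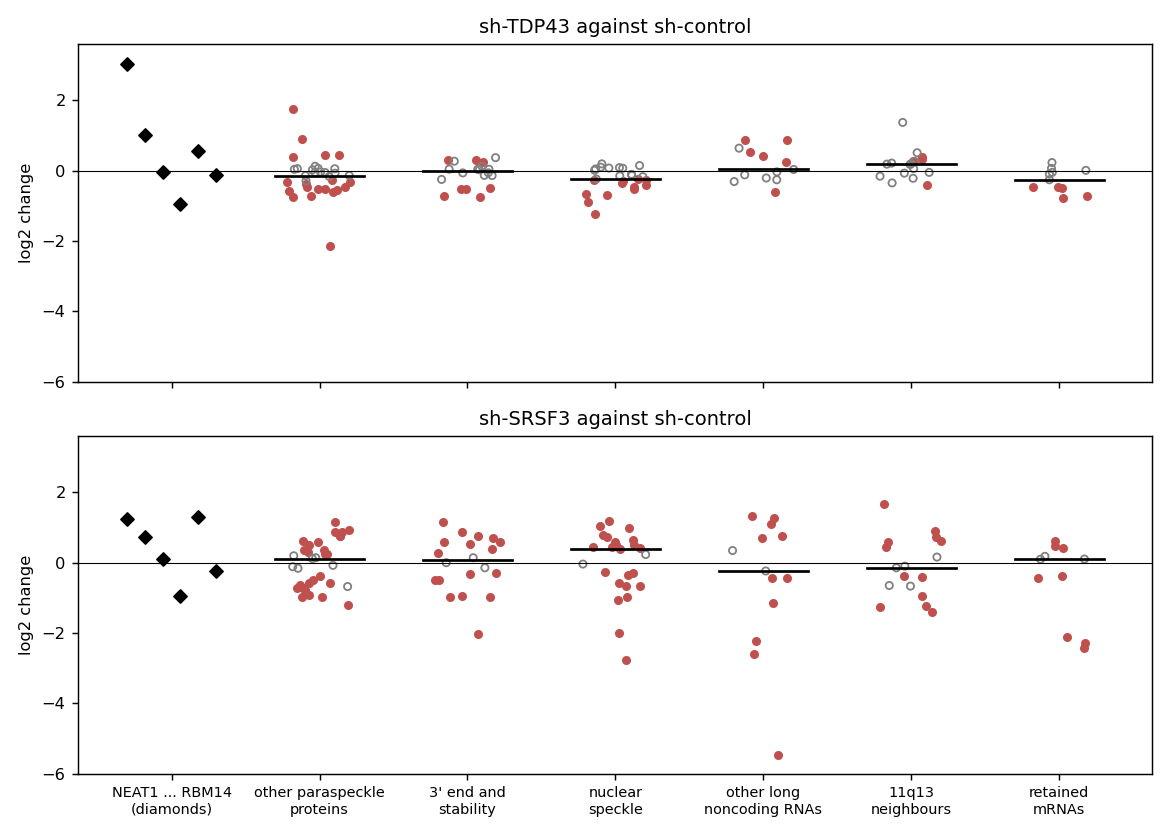
Log2 change of each tested gene in sh-TDP43 (top) and sh-SRSF3 (bottom) against sh-control (vertical axis in log2 units). Black diamonds are NEAT1, MALAT1, SFPQ, NONO, PSPC1 and RBM14 in that order, filled red circles passed an edgeR adjusted p of 0.05, open circles did not, and lines mark list medians, which lie between -0.26 and 0.40. The black diamonds in the top panel carry no test, nor do those of NEAT1 and MALAT1 in the bottom panel.

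In the RIP libraries the 6 transcripts fell into different patterns for flag-TDP43 and flag-SRSF3. PSPC1 and MALAT1 stood above their inputs in the TDP43 RIP by both deposited measures, and SFPQ and RBM14 did so in the SRSF3 RIP. Only SFPQ and RBM14 passed 2-fold relative to the median gene by both measures. Values are FPKM (fragments scaled by gene length and library size, from the authors' table), and ratios are log2((RIP + 0.1)/(input + 0.1)) minus the median ratio of all genes with at least 1 FPKM in either library. Each input held more RNA of its own transgene, with TARDBP at 14.2 FPKM in input-flag-TDP43 and 1.76 in input-flag-SRSF3, and SRSF3 at 29.3 FPKM in input-flag-TDP43 and 54.9 in input-flag-SRSF3. With 1 library per kind there is no test and no check by replicates, and the depth of these libraries is unknown.

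NEAT1 was at 0.525 FPKM in RIP-flag-TDP43 and 0.310 in input-flag-TDP43, and at 0.598 FPKM in flag-RIP-flag-SRSF3 and 0.543 in input-flag-SRSF3. It was under 1 FPKM in all 4 libraries and, alone among the 6 genes, did not pass the minimum, so no ratio of it is read from this table. A second deposited table, a normalised signal of a unit that was not stated, listed NEAT1 at 11.4 in RIP-flag-TDP43 and 3.15 in its input, and at 1.56 in flag-RIP-flag-SRSF3 and 1.97 in its input. Its centred log2 ratios there were 1.94 for TDP43 and -0.36 for SRSF3. In that table NEAT1 was above its input with TDP43 and slightly below it with SRSF3.

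MALAT1 was at 19.9 FPKM in RIP-flag-TDP43 and 11.5 in its input, and at 5.16 FPKM in flag-RIP-flag-SRSF3 and 4.45 in its input. Relative to the median gene its log2 ratio was 0.76 with TDP43 and -0.02 with SRSF3. The normalised signal gave 1.16 with TDP43 and -1.39 with SRSF3, the same order of the proteins with a larger gap. The inputs themselves differed in opposite directions in the tables, by 1.33 in FPKM and -0.24 in the signal between input-flag-TDP43 and input-flag-SRSF3, so the tables do not give 1 level for MALAT1. The short entry of MALAT1 was at 2.96 FPKM in RIP-flag-TDP43 and 2.86 in its input, and at 0.603 FPKM in flag-RIP-flag-SRSF3 and 0.779 in its input.

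Among the protein genes, SFPQ was at 14.2 FPKM in RIP-flag-TDP43 and 16.5 in its input, and at 65.3 FPKM in flag-RIP-flag-SRSF3 and 19.98 in its input. RBM14 was at 8.04 FPKM in RIP-flag-TDP43 and 8.003 in its input, and at 29.8 FPKM in flag-RIP-flag-SRSF3 and 10.5 in its input. For both genes the SRSF3 RIP was the only library that stood apart. Their centred log2 ratios with SRSF3 were 1.47 for SFPQ and 1.26 for RBM14 in FPKM, and 1.41 and 1.10 in the normalised signal, while with TDP43 they lay between -0.25 and -0.02 in both tables.

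PSPC1 was at 23.0 FPKM in RIP-flag-TDP43 and 9.26 in its input, and at 13.5 FPKM in flag-RIP-flag-SRSF3 and 11.5 in its input. NONO was at 29.0 FPKM in RIP-flag-TDP43 and 33.3 in its input, and at 58.3 FPKM in flag-RIP-flag-SRSF3 and 48.5 in its input. PSPC1 was high in the TDP43 RIP alone, and NONO stayed near its input in both RIPs in FPKM. The centred log2 ratio of PSPC1 was 1.27 with TDP43 and 0.01 with SRSF3 in FPKM, and 0.77 and 0.21 in the signal. That of NONO was -0.23 with TDP43 and 0.04 with SRSF3 in FPKM, and -0.74 and 0.35 in the signal.

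Of the 5 genes that passed the minimum, 1 was more than 2-fold above the median gene in the TDP43 RIP, where 20.5% of genes were, and 2 were in the SRSF3 RIP, where 15.9% of genes were. In the difference between the RIPs, SFPQ and RBM14 lay more than 2-fold to the SRSF3 side, at -1.72 and -1.29, where 26.8% of genes did, and PSPC1 lay to the TDP43 side at 1.27, where 27.0% did. In the normalised signal these differences were -1.62 for SFPQ, -1.30 for RBM14 and 0.56 for PSPC1, and that of NONO was -1.09. In that table NEAT1 and MALAT1 were more than 2-fold above the median gene with TDP43, where 17.5% of genes were, and with SRSF3 SFPQ and RBM14 were above it, where 11.9% were, and MALAT1 below it, where 11.2% were. The authors' deposited table gives log2 folds of RIP over input, not centred, of 1.71 for SFPQ and 1.498 for RBM14 with SRSF3, and of 1.32 for PSPC1 with TDP43. Over all genes, the ratios from FPKM and from the signal had the same sign for 87.4% of 10594 genes with TDP43 and for 85.1% of 10640 genes with SRSF3.

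**Figure D5:**
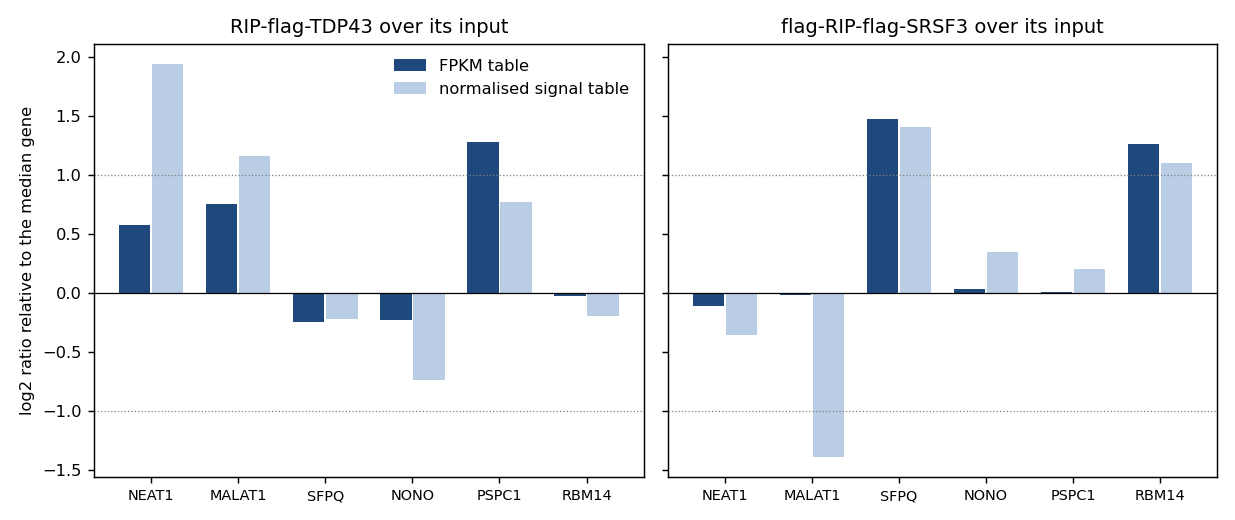
Log2 ratio of RIP to input relative to the median gene (vertical axis) for the 6 genes with flag-TDP43 (left) and flag-SRSF3 (right), 1 library of each kind, from the FPKM table (dark) and the normalised signal table (light), with dotted lines at 2-fold. SFPQ and RBM14 pass the line with SRSF3 in both tables, and NEAT1, which is under 1 FPKM, differs between the tables with TDP43.

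Of 34 genes for other paraspeckle proteins, 30 passed the minimum for the TDP43 RIP, and 7 were more than 2-fold above and 2 below the median gene, where 20.5% and 20.4% of all genes were, with a median of 0.26. For the SRSF3 RIP 29 passed, with 3 above and 5 below, where 15.9% and 15.1% of all genes were, and a median of -0.37. ERH, a small splicing-linked gene, was at 3.01 and HNRNPM, a splicing repressor gene, at 2.04 with TDP43, and both were below the median gene with SRSF3, at -0.43 and -0.74. UBAP2L was above it with both, at 1.04 with TDP43 and 1.16 with SRSF3. TARDBP, the transgene itself, is among the 7. Of 12 neighbours on 11q13 that passed for TDP43, 0 were more than 2-fold above and 5 below (median -0.85), and of 14 that passed for SRSF3, 6 were above and 0 below (median 0.94). In the normalised signal these medians were -0.86 and 0.81. MALAT1 at 0.76 with TDP43 lay on the other side of the median gene from neighbours such as RELA, an NF-kB subunit gene, at -2.07, and SIPA1, a GTPase regulator gene, at -1.82. It was not alone in this among long noncoding RNAs. Of 20 others that passed for TDP43, 6 were more than 2-fold above and 4 below (median 0.58). For SRSF3 20 passed, with 0 above and 10 below (median -0.96). The medians of these RNAs in the normalised signal were 0.11 and -0.83.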

How the data were processed

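RNA-seq of MDA-MB231 with hairpins and RIP-seq with inputs were used, grouped by sample title. Per the file headers, the deposited knockdown values are raw read counts per gene over exons from featureCounts 1.4.6-p5, with no strand option. A gene can therefore be counted for reads from either strand, and reads on exons of several genes are not counted. The submitters' processing notes name GRCh37, Cufflinks, StringTie 1.3.0, HISAT2 2.0.5 and STAR 2.5.2a, without roles. The RIP libraries have FPKM per gene and log2 fold changes by the authors, per the file headers, and a further deposited table has a normalised signal, with its unit and scaling not given in the sources used here. Whether polyadenylated RNA was selected is not stated in the labels. The RIP tables list coordinates of GRCh38 and the count table those of GRCh37, and 640 genes of the count table stayed unnamed. Columns of the count table that match no label numbered 2 and were not used. With the combined knockdown not analysed here, 6 libraries with 3 residual degrees of freedom were fitted.

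The test on counts was that of edgeR 4.0.16 under R 4.3.3 (TMM, filterByExpr, two-sided quasi-likelihood test, 15026 genes, Benjamini-Hochberg over all of them, threshold 0.05), and the procedure was tested on simulated data. SE is the log2 change divided by the square root of F. Alternatives were upper-quartile, median-of-ratios and library-total scaling, scaling without NEAT1 and MALAT1, no filter, a replicate block, only the groups compared, DESeq2 1.42.0 and each library left out. RIP ratios used a pseudocount of 0.1 and a minimum of 1 FPKM, and the low values gave no whole-read steps, so depth is unknown. No library was a repeat of another, since chi-square per gene within groups was 12.0 to 24.6. The named genes are the 6 genes, the targets, at most 3 called genes per list, direction and comparison, and the 5 genes nearest to NEAT1 and to MALAT1. Genes of the RIP lists were named after their values were seen. Genes and lists were chosen with earlier results of these data known.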

Additional observations from a re-analysis of the deposited data

How the results depend on the processing

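Over the member genes and the counts of called genes, 519 recomputed values stayed the same, 15 moved, 3 reversed, 2 gained and 7 lost a call. For NEAT1 and MALAT1 in the sh-TDP43 comparisons, the same means an unchanged sign and a shift within the spread of the libraries. Elsewhere the same means that a gene kept its side of the threshold, and its sign could turn if neither value passed. SFPQ ran from -0.06 to 0.15 in sh-SRSF3 against sh-control. A count of called genes was taken as the same if it stayed within 1.5-fold, and a RIP ratio if it did so on its side of 2-fold. In sh-SRSF3 against sh-control, RBM14 missed the threshold with median-of-ratios scaling (-0.23), without the filter (-0.24), with DESeq2 (-0.23) and with single libraries left out (-0.28 to -0.22). In sh-TDP43 against sh-SRSF3, upper-quartile scaling and library totals gave calls for RBM14 (0.37 and 0.32), and NONO became 0.24 with the first. The untested differences there became 0.53 and 0.48 for MALAT1 and 2.04 and 1.99 for NEAT1. These scalings moved the median of all genes there by 0.25 and 0.19. Genes higher in sh-TDP43 than in sh-control numbered 1962 without sh-TDP43 replicate 2, against 3105 with it, and up to 3008 without another library. Upper-quartile scaling gave 3956 higher and 2978 lower there, against 3105 and 3623.

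With the replicate block, 7672 genes were called in sh-TDP43 against sh-control, against 6728 without it, and no call printed for the 6 genes changed. The deviations of same-numbered libraries correlated at 0.0557 to 0.107 over 2 numbers, so the numbers were not taken to pair samples.

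The normalised signal table, chosen after seeing the data, gave for TDP43 RIP over input 1.94 for NEAT1, 1.16 for MALAT1 and 0.77 for PSPC1, and for SRSF3 -1.39 for MALAT1. For the difference of the RIPs it gave 2.30 for NEAT1, 2.55 for MALAT1, -1.09 for NONO and 0.56 for PSPC1. Between the inputs it gave 0.64 for NEAT1, -0.24 for MALAT1 and -0.15 for its short entry. In FPKM that short entry was at 1.73, and at 1.10 with a pseudocount of 1. The cause of these differences was not tested. For the RIPs, unknown depth and single libraries limit every value, NEAT1 most, at under 1 FPKM.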

Other observations

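The genes whose log2 CPM profile over the 6 hairpin libraries lay nearest to that of NEAT1, by Euclidean distance after centring on each gene's mean, were ITGB2, an integrin subunit gene of leukocytes (distance 0.439), NLRP10 (0.698), ALPP (0.739), the noncoding RP1-140K8.5 (0.741) and PADI1, a peptidylarginine deiminase gene (0.759). ITGB2 was 2.71 higher in sh-TDP43 and 1.21 higher in sh-SRSF3 than in sh-control on the log2 scale, beside 3.03 and 1.23 for NEAT1. The count of ALPP is uncertain because its paralogs are nearly identical. Nearest to MALAT1 were KBTBD7 (0.302), TIMM17B, a mitochondrial import gene (0.332), RP5-1061H20.4 (0.333), MYH3 (0.344) and ALG14 (0.346). A small distance says that levels were alike over these libraries and nothing of function.

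The RIP table lists short annotated stretches inside NEAT1 as entries of their own, which were looked at after their values were seen. NEAT1_1, bases 500 to 619 of the gene, was at 0.000398 FPKM in RIP-flag-TDP43 and 0.000861 in input-flag-TDP43, and at 0.351 FPKM in flag-RIP-flag-SRSF3 and 0.00124 in input-flag-SRSF3. NEAT1_2, bases 865 to 969, was at 1.04 FPKM in RIP-flag-TDP43 and 0.0789 in input-flag-TDP43, and at 0.394 FPKM in flag-RIP-flag-SRSF3 and 0.405 in input-flag-SRSF3. NEAT1_3, bases 1187 to 1345, was at 0.898 FPKM in RIP-flag-TDP43 and 0.0428 in its input, and at 0.247 FPKM in flag-RIP-flag-SRSF3 and 0.535 in its input. All 3 lie near the 5′ end, in the stretch that the isoforms share, and the first did not go the way of the other 2. MIR612, bases 21685 to 21784, which is in the long isoform alone, was at 0.147 FPKM in RIP-flag-TDP43 and 0.0899 in its input, and at 0.106 FPKM in flag-RIP-flag-SRSF3 and 0.309 in its input. All but NEAT1_2 in RIP-flag-TDP43 were under 1 FPKM, so these values are too low to rank.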
